A study of Mus musculus with 9 samples.

Results

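The genes Trpm1, Baiap2l2, Yipf7, Lyzl4 and Capn11 were close to silent in microglia of wild-type mice and were read at higher levels in microglia of a mouse model of amyloid deposition. The set holds 5 of the 18571 genes in the deposited expression table. Members were chosen by symbol and by measured levels: they had to lie under 1 CPM (counts scaled to a common library size) in the wild-type libraries and higher in one or both groups that carry APP/PS1. Those same levels selected the genes, so their difference from wild type is given below as a description, without a test. All 5 met the level rule: the highest wild-type value of any of them was 0.492 CPM, for Baiap2l2. All 5 were also among the 14696 genes that passed the filter on low counts, which they passed through the groups in which they were high.

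The study asked what connexin 43 (Cx43, encoded by Gja1), a gap junction protein, does in microglia in a model of Alzheimer's disease. Poly-A RNA was sequenced from microglia of the cortex and hippocampus of 9-month-old mice, 3 libraries per group. The wild-type group (WT) carried no named allele. The APP/PS1 group carried that transgene pair, which drives amyloid plaque formation. The third group, labelled APP/PS1:Cx3cr1-CreER:Cx43-flox/flox and called cKO here, also carried a tamoxifen-inducible Cre expressed from Cx3cr1, a gene of microglia and other mononuclear phagocytes, and floxed Cx43. Every mouse was on the C57BL6/j background, and the labels give all groups the same tamoxifen course by gavage, at 8 months, 0.1 mg/g on 5 days. The APP/PS1 mice are not labelled as carrying CreER or floxed Cx43, so those alleles and the loss of Cx43 cannot be told apart. Cells were bound to plates by an antibody to CD45, which other leukocytes carry too. The labels do not say whether the libraries of a group came from separate animals, so p-values measure the spread between these libraries only.

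Microglia are the resident macrophages of the brain, and around amyloid plaques they take on a state with raised lysosomal, lipid-handling and phagocytic genes. The 5 genes described here are better known from other tissues. Trpm1 encodes a cation channel of retinal ON bipolar cells and melanocytes, in which the transcription factor MITF, which binds E-box letters such as CACGTG and TCATGTG, drives it. Baiap2l2 encodes an I-BAR protein, a class that binds and bends the plasma membrane, known from epithelia and the stereocilia of hair cells. Yipf7 encodes a multi-pass membrane protein of the Yip1 family, which acts between the endoplasmic reticulum and the Golgi. Lyzl4 encodes a lysozyme-like protein and Capn11 a calcium-dependent cysteine protease of the calpain family, both known mainly from testis.

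On GRCm38.p6, the build named in the submitters' processing notes and used by the RefSeq gene table, Trpm1 lies on chromosome 7 from 64153835 to 64269772 on the plus strand. The others lie on the minus strand: Baiap2l2 on chromosome 15 from 79258195 to 79285556, Yipf7 on chromosome 5 from 69516670 to 69542647, Lyzl4 on chromosome 9 from 121577841 to 121642121, and Capn11 on chromosome 17 from 45630191 to 45659709. All 5 are annotated as protein coding and lie on different chromosomes. The RefSeq promoter table for that build had entries for 3 of them, 6 in all. Each entry runs from 250 bases before to 50 bases after a transcription start.

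Both Trpm1 starts are shown because each holds an E-box spelling, Lyzl4 start 2 because it holds the same motif at 2 places, and Capn11 because it holds none of the motifs searched. Capitals mark motif matches on either strand, and a match on the opposite strand appears as its reverse complement. Each sequence reads 5′ to 3′ along the gene's strand.
Trpm1 start 1, chr7:64153585-64153884, plus strand: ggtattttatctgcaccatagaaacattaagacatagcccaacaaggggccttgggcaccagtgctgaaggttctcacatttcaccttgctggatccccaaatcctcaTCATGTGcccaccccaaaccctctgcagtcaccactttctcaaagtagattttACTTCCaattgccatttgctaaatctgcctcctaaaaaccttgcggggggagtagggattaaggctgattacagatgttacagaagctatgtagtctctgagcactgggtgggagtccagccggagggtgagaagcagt
Trpm1 start 2, chr7:64185209-64185508, plus strand: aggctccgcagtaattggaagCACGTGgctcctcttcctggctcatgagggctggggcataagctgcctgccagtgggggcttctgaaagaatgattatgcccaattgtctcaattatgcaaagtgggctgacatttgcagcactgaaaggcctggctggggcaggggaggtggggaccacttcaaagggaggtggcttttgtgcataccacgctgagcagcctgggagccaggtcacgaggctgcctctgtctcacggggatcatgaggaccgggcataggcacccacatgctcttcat
Lyzl4 start 2, chr9:121641545-121641844, minus strand: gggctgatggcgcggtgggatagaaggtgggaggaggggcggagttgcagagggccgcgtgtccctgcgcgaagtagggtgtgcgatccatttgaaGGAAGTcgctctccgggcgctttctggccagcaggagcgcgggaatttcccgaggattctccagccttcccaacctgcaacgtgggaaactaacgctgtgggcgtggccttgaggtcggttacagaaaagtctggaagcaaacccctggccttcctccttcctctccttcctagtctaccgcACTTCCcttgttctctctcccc
Capn11 start 1, chr17:45659260-45659559, minus strand: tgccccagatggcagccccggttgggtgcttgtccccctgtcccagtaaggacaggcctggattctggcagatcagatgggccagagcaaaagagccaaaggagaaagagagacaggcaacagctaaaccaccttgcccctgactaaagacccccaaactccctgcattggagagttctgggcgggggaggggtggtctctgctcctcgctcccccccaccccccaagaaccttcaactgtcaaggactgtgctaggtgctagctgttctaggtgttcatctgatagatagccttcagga

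The letters searched, on both strands, were CACGTG and TCATGTG (E-box spellings), GGAAGT (an ETS-type core), TGTGGT (a RUNX-type core), TGANTCA (an AP-1 site) and TATAAA. Trpm1 start 1 held TCATGTG at position -142 from the start and, at position -89, GGAAGT on the opposite strand. CACGTG stood at position -229 from Trpm1 start 2. Lyzl4 start 2 held GGAAGT at position -154 and again, on the opposite strand, at position 28. Of the sequences not printed, Lyzl4 start 3 held TGTGGT and Lyzl4 start 1 held no match. No 2 matches overlapped. Among all 32851 promoters of that length in the table, TCATGTG was present in 3.77%, CACGTG in 7.15%, GGAAGT in 23.8%, TGTGGT in 16.8%, TGANTCA in 7.81% and TATAAA in 13.6%. These matches are descriptions of letters, and whether any factor bound there was not measured.

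Library totals ran from 18907681 to 19565354 estimated counts, so 1 CPM corresponded to between 18.3 and 20.4 counts after TMM scaling, and counts of a few reads carry wide counting errors. The 10 microglial markers summed to between 23459 and 28322 CPM in every library, and none was at 0. Gja1, the targeted gene, had 682, 642 and 716 counts for WT, 727, 688 and 788 for APP/PS1 and 514, 484 and 539 for cKO. The knockout libraries were the lowest, at 26.9 ± 1.42 CPM against 39.7 ± 2.72 in APP/PS1 (SD, n = 3 each); the counts cover the whole gene, so reads from the floxed part were not separated. Markers of astrocytes, a cell type rich in Gja1, were lower in the same comparison, with 7 of 8 called lower in cKO, a median log2 difference of -0.48 and sums of 652 to 673 CPM for APP/PS1 and 501 to 511 for cKO; their part in the Gja1 level was not tested. Cx3cr1, from which the Cre is expressed, was at 2259 ± 24.1 CPM for WT, 2230 ± 13.6 for APP/PS1 and 1214 ± 24.9 for cKO. The Y-linked gene Ddx3y lay between 204 and 248 CPM in the WT and APP/PS1 libraries and at or below 0.104 CPM in the cKO libraries, so sex-linked expression and the Cx43 genotype cannot be told apart in any comparison with that group. Many genes differed between groups: with edgeR's quasi-likelihood test at an adjusted p under 0.05, 59% of the genes tested were called in APP/PS1 against WT (26.9% higher, 32% lower), 55% in cKO against APP/PS1 (27.3% higher, 27.7% lower) and 47.7% in cKO against WT (24.7% higher, 23% lower).

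**Figure D1:**
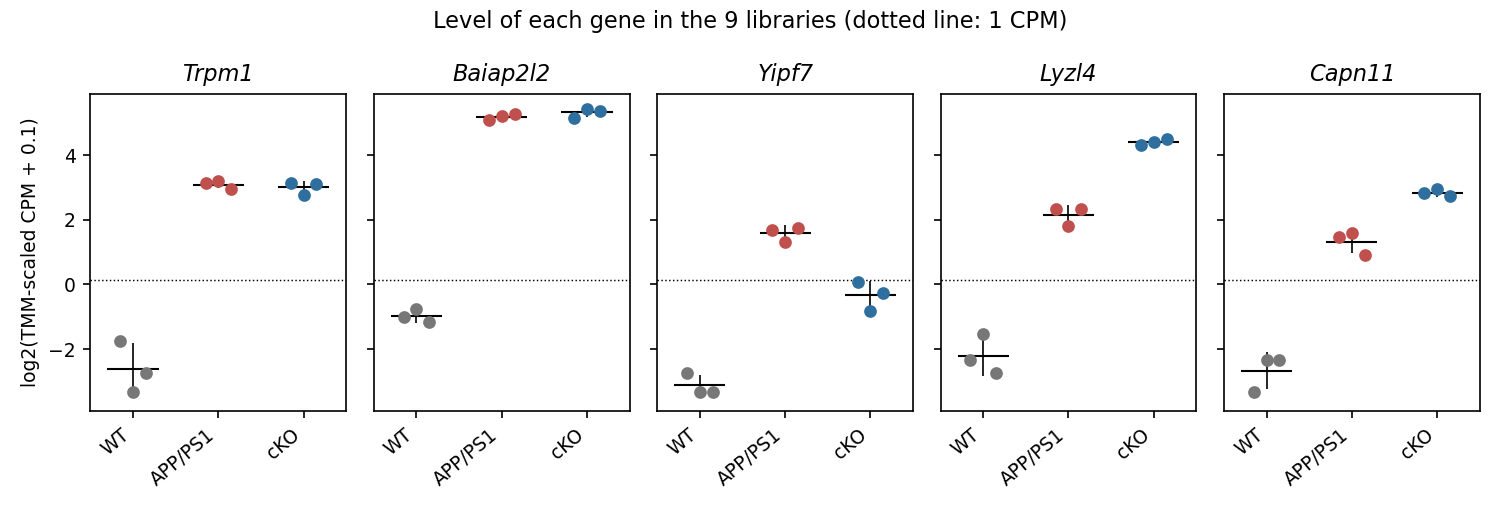
Level of each gene in the 9 libraries, as log2 of TMM-scaled CPM plus 0.1. Points are libraries, horizontal bars the mean and vertical bars 1 SD of the 3 libraries of a group on that scale. Trpm1 and Baiap2l2 stood at like heights in both APP/PS1 groups, Lyzl4 and Capn11 were higher in cKO, and Yipf7 was lower there, with all 3 of its cKO libraries under the dotted line at 1 CPM.

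Trpm1 had rounded estimated counts of 4, 0 and 1 in the 3 WT libraries, of 158, 168 and 143 in those of APP/PS1 and of 164, 129 and 163 in those of cKO. Every library with APP/PS1 stood above every WT library, as held for all 5 genes; the rule chose them so, and nothing is read from it beside the 26.9% and 24.7% of genes called higher. For Trpm1 the 2 groups with APP/PS1 overlapped. Because these are bulk samples, a change in how many cells made the transcript and a change in transcript per cell cannot be told apart, here and for each gene below. Mean CPM was 8.46 ± 0.684 with APP/PS1 and 7.97 ± 1.07 with cKO (SD, n = 3 each, as for each mean ± SD below), and the 5 WT counts pooled gave 0.0823 CPM, with an exact Poisson interval of 0.0267 to 0.192. Pooled counts were 102.8 times higher in APP/PS1 than in WT (95% exact interval 43.7 to 318) and 96.9 times higher in cKO (41.2 to 299.8); these intervals, like all intervals of pooled counts here, cover counting error only. Without WT replicate 1, which held 4 of the 5 counts, the ratios of mean CPM were 345 and 326, and without WT replicate 2, the library at 0, they were 68.03 and 64.2; on TPM the ratio in APP/PS1 was 78.3.

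Across all genes cKO was compared with APP/PS1 in the same edgeR fit, a contrast that the choice of members did not use directly but that shares its libraries. Trpm1 did not pass the test there, with a log2 difference of -0.08 (SE 0.12, adjusted p = 0.59) and a 95% interval of -0.33 to 0.16; on TPM, which scales by length and by the sum of all genes, the difference had the opposite sign, at 0.10. Without cKO replicate 2 it was 0.021. The interval leaves room for a fold between 0.796 and 1.12.

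Of the other TRPM channels 6 of 7 were in the table and 5 were tested. In APP/PS1 against WT 1 was called higher and 2 lower, with 3 lower on TPM, and their median log2 difference was -0.12, beside -0.04 over all genes tested. Trpm6, a magnesium-permeable channel, was at 1.25 ± 0.021 CPM for WT, 1.64 ± 0.267 for APP/PS1 and 5.24 ± 0.514 for cKO. It rose by 1.67 on the log2 scale from APP/PS1 to cKO (SE 0.16, edgeR adjusted p = 1.97e-09), where Trpm1 showed no called difference. Trpm5, the sensory-cell channel, stayed at or under 0.0873 CPM on average in each group. In cKO against APP/PS1 3 of the 5 were called higher and 1 lower, with 4 higher and 1 lower on TPM.

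Of the MITF and TFE factors, which bind E-boxes, all 4 were measured. In APP/PS1 against WT 1 was called higher, Mitf itself, at 51.8 ± 2.47 CPM against 44.9 ± 1.11, and the other 3 lower; with library totals, FPKM or TPM the higher call was lost, and on TPM all 4 were called lower. Tfec, a member expressed in macrophages, fell by 1.32 on the log2 scale, from 3.55 ± 0.462 to 1.42 ± 0.102 CPM, and was at 3.02 ± 0.235 CPM in cKO. Melanocyte markers, among them the pigment genes Pmel and Tyr, summed to at most 2.6 CPM in any library and retinal bipolar markers to at most 1.66 CPM, and 3 and 4 of the 6 markers of each were under 0.1 CPM on average in WT.

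Baiap2l2 was the most abundant of the 5 genes. It had 8, 10 and 7 counts for WT, 623, 692 and 720 for APP/PS1 and 677, 828 and 790 for cKO. Every library with APP/PS1 was far above every WT library, and the 2 groups with APP/PS1 overlapped. Mean levels were 0.411 ± 0.0756 CPM for WT, 36.7 ± 2.43 for APP/PS1 and 40.1 ± 3.83 for cKO, which are ratios of pooled counts to WT of 89.2 (95% exact interval 60.2 to 138) and 97.5 (65.9 to 151). Ranked by TPM among the 18571 genes, Baiap2l2 stood at place 14099 in WT, 2772 in APP/PS1 and 2538 in cKO.

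Against APP/PS1, Baiap2l2 in cKO missed the threshold, with a log2 difference of 0.13 (SE 0.06, edgeR adjusted p = 0.0835) and a 95% interval of 0.007 to 0.25. It passed with library totals (0.16, adjusted p = 0.0307), on TPM (0.31, adjusted p = 0.022), and in edgeR without APP/PS1 replicate 3 (0.17, adjusted p = 0.0491) or without cKO replicate 1 (0.20, adjusted p = 0.00531). The difference was smaller, and not called, with length and GC offsets (0.059, adjusted p = 0.371), without cKO replicate 2 (0.069, adjusted p = 0.408) and without APP/PS1 replicate 1 (0.079). All of these kept the direction. The upper bound of the interval is a 1.19-fold difference.

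Of the 4 other I-BAR genes tested, 1 was called higher and 1 lower in APP/PS1 than in WT, while on TPM 3 of the 4 were called lower. Mtss1, an actin-binding scaffold, was at 59.4 ± 0.836 CPM for WT, 50.04 ± 1.7 for APP/PS1 and 52.2 ± 2.96 for cKO. Baiap2, known as IRSp53, was at 25.9 ± 0.0513, 23.6 ± 1.45 and 34.4 ± 1.62 CPM, and rose by 0.54 on the log2 scale from APP/PS1 to cKO (SE 0.06, edgeR adjusted p = 7.59e-09). Mtss2 lay between 24.3 and 25.6 CPM on average in all groups. Hair cell markers, of which 5 of 7 were in the table, summed to 78.1 to 83.4 CPM in WT, 79.6 to 84.9 in APP/PS1 and 80.8 to 84.5 in cKO. Nearly all of that sum was Myo7a, a myosin gene, with mean CPM of 77 for WT, 77.9 for APP/PS1 and 78.6 for cKO, and each of the others measured averaged at most 2.85 CPM in a group.

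Yipf7 was lower in cKO than in APP/PS1. It had 1, 0 and 0 counts for WT, 57, 44 and 61 for APP/PS1 and 18, 9 and 14 for cKO. None of the groups overlapped, and the cKO libraries lay between the others. In CPM the levels were 2.92 ± 0.488 in APP/PS1 and 0.718 ± 0.242 in cKO, and the single WT count gave 0.0165 CPM with an exact Poisson upper bound of 0.0917. With 1 count in WT, the ratios of pooled counts, 177 in APP/PS1 (95% exact interval 31.4 to 7053) and 43.6 in cKO (7.39 to 1762), are poorly bounded above, and without WT replicate 1 no ratio can be formed.

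The log2 difference of Yipf7 in cKO against APP/PS1 was -2.02 (SE 0.26), a fold of 0.247 with a 95% interval of 0.173 to 0.353. Yipf7 was selected on, and passed the filter on low counts through, its high APP/PS1 values, so this difference is a description and no p is given for it. Calls of the other 4 genes in this comparison stand beside 55% of all genes tested (27.3% higher), and nothing is read from their count. Of the 15 marker lists, 6 had sums that were likewise highest in APP/PS1 with no overlap. They were those of microglia (23459 to 23616 CPM in WT, 28149 to 28322 in APP/PS1, 24007 to 24102 in cKO), astrocytes (457 to 465, 652 to 673 and 501 to 511 CPM), T and NK cells (26.4 to 27.9, 41.3 to 42.2 and 26.1 to 27.4 CPM), neurons (53.3 to 54.1, 57 to 62.4 and 39 to 41.2 CPM), oligodendrocytes (2032 to 2092, 2096 to 2141 and 1983 to 2047 CPM) and spermatids (1.75 to 2.2, 3.61 to 4.31 and 2.22 to 2.5 CPM). In the microglial, astrocyte and spermatid sums cKO lay between WT and APP/PS1 with no overlap, as for Yipf7. Zpbp carried most of the spermatid sum, with mean CPM of 1.48 for WT, 3.44 for APP/PS1 and 2.01 for cKO. Apart from the spermatid list, no marker of these lists was at 0 in a group; the part of these cells in the level of Yipf7 was not tested. Skeletal muscle markers summed to at most 3.28 CPM in any library.

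All 8 other Yip1 family genes listed were tested. In APP/PS1 against WT 6 were called higher and 2 were not called with TMM scaling, but 1 was called higher and 3 lower on TPM, so their direction depends on the scaling; the median log2 difference was 0.44, beside -0.04 over all genes. In cKO against APP/PS1 1 was called higher and 5 lower, and 2 and 2 on TPM. Yipf6 was at 43.3 ± 1.64 CPM for WT, 61.5 ± 3.08 for APP/PS1 and 51.4 ± 2.96 for cKO, and Yipf4 at 43.8 ± 2.0, 59.998 ± 1.04 and 48.3 ± 2.46 CPM. Their log2 changes from WT to APP/PS1 were 0.51 and 0.45 (edgeR adjusted p = 2.35e-09 and 6.26e-09), but on TPM neither was called, at 0.11 and 0.060 (adjusted p = 0.105 and 0.263). Yipf3 lay between 42 and 48.5 CPM on average and was the 1 called higher in cKO against APP/PS1 (0.14, edgeR adjusted p = 0.0268). That call was lost in DESeq2, with length and GC offsets, and without APP/PS1 replicate 1 or cKO replicate 2 or 3.

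Lyzl4 counts were 2, 5 and 1 for WT, 91, 63 and 91 for APP/PS1 and 377, 404 and 431 for cKO, so the groups were ordered WT, APP/PS1, cKO without overlap. Mean levels were 4.42 ± 0.893 CPM in APP/PS1 and 21.2 ± 1.24 CPM in cKO, and the 8 WT counts pooled gave 0.132 CPM (exact Poisson interval 0.0568 to 0.259). Pooled counts were 33.6 times those of WT in APP/PS1 (95% exact interval 16.8 to 78.6) and 161 times in cKO (81.4 to 374). Without WT replicate 2, which held 5 of the 8 counts, the ratios of mean CPM were 59.4 and 285.

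From APP/PS1 to cKO, Lyzl4 rose by 2.26 on the log2 scale (SE 0.11), a 4.79-fold difference with a 95% interval of 4.12 to 5.57. Its selection drew on its high values in the groups with APP/PS1, cKO among them. This difference is therefore a description, and no p is given for it. Markers of neutrophils and monocytes moved in the same direction between these groups, with all 11 called higher and sums of 922 to 946 CPM in APP/PS1 and 8444 to 8617 CPM in cKO. In WT, where Lyzl4 was lowest, those markers summed to 2634 to 2675 CPM, above their level in APP/PS1, and none was at 0. B cell markers were also higher in cKO than in APP/PS1, with 4 of 5 called higher and sums of 30.3 to 32.7 CPM for WT, 10.1 to 11.6 for APP/PS1 and 19.1 to 20.1 for cKO, so highest in WT. Retinal bipolar marker sums were higher as well, at 0.97 to 1.29 CPM for APP/PS1 and 1.3 to 1.38 for cKO, with neither of the 2 tested markers called. The part of these cells in the level of Lyzl4 was not tested. Spermatid markers, of which 5 of 9 were in the table, summed to at most 4.31 CPM. In each group 2 of the 5 had no read, though not the same 2, and Zpbp, a gene of the acrosome, made up most of the sum.

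The lysozymes that define the family in myeloid cells were abundant in every group. Lyz2 was at 614 ± 5.46 CPM for WT, 1371 ± 30.5 for APP/PS1 and 1765 ± 59.6 for cKO, and Lyz1 at 48.4 ± 3.2, 111 ± 4.06 and 137 ± 7.27 CPM; these 2 genes are near-identical copies, so the division of reads between them is uncertain. They rose in both steps: by 1.16 and 1.20 on the log2 scale from WT to APP/PS1 (edgeR adjusted p = 2.95e-22 and 1.32e-16) and by 0.36 and 0.30 from APP/PS1 to cKO (edgeR adjusted p = 1.44e-11 and 3.33e-06). The neutrophil and monocyte marker sums given for Lyzl4 fell in the first step and rose in the second. The part of these cells in the levels of Lyz2 and Lyz1 was not tested. Lalba, the milk protein of the same fold, was at 0.691 ± 0.134, 0.144 ± 0.164 and 0.139 ± 0.0792 CPM and was called lower in APP/PS1. Of 7 listed relatives 4 were in the table and 3 tested, with 2 called higher and 1 lower in APP/PS1 than in WT under each scaling tried.

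Capn11 had 0, 2 and 2 counts for WT, 49, 54 and 33 for APP/PS1 and 132, 146 and 125 for cKO, in the same order as Lyzl4 and again with no overlap. Mean levels were 2.45 ± 0.596 CPM in APP/PS1 and 7.04 ± 0.563 CPM in cKO, and the 4 WT counts pooled gave 0.0658 CPM (exact Poisson interval 0.0179 to 0.169). The ratios of pooled counts to WT were 37.2 (95% exact interval 14.2 to 139) and 107 (41.5 to 395). On TPM the ratio in APP/PS1 was 22.8, and without WT replicate 1, the library at 0, the ratios of mean CPM were 24.98 and 71.7. From APP/PS1 to cKO the gene rose by 1.52 on the log2 scale (SE 0.16), a 2.87-fold difference with a 95% interval of 2.29 to 3.59. Its selection, too, drew on its high values in the groups with APP/PS1, cKO among them. This difference is therefore a description, and no p is given for it. The neutrophil, monocyte and B cell marker sums given for Lyzl4 stood in the same relation to Capn11: higher in cKO than in APP/PS1, and in WT, where Capn11 was lowest, above APP/PS1. The part of these cells in the level of Capn11 was not tested.

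Among the other calpains and their regulators 14 of 15 were in the table and 10 were tested. In APP/PS1 against WT 4 were called lower and 6 were not called, while on TPM all 10 were called lower and with length and GC offsets 5 were called lower and 1 higher. Capn1, the ubiquitous calpain, was at 28.1 ± 1.21 CPM for WT, 17.1 ± 0.578 for APP/PS1 and 53.7 ± 2.59 for cKO. It fell by 0.72 on the log2 scale from WT to APP/PS1 (SE 0.06, edgeR adjusted p = 1.61e-10), where Capn11 levels were higher, and rose by 1.65 from APP/PS1 to cKO (SE 0.06, edgeR adjusted p = 5.28e-19), as Capn11 did. Like Capn1, the neutrophil and monocyte marker sums given for Lyzl4 were lowest in APP/PS1 and highest in cKO. The part of these cells in the level of Capn1 was not tested. In cKO against APP/PS1 4 of the 10 were called higher, Capn1, Capn2 and the regulators Capns1 and Cast, and 6 were not called. On TPM 8 were called higher, and with length and GC offsets 4 were called higher and 1 lower. The median log2 difference was 0.13, beside -0.01 over all genes.

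**Figure D2:**
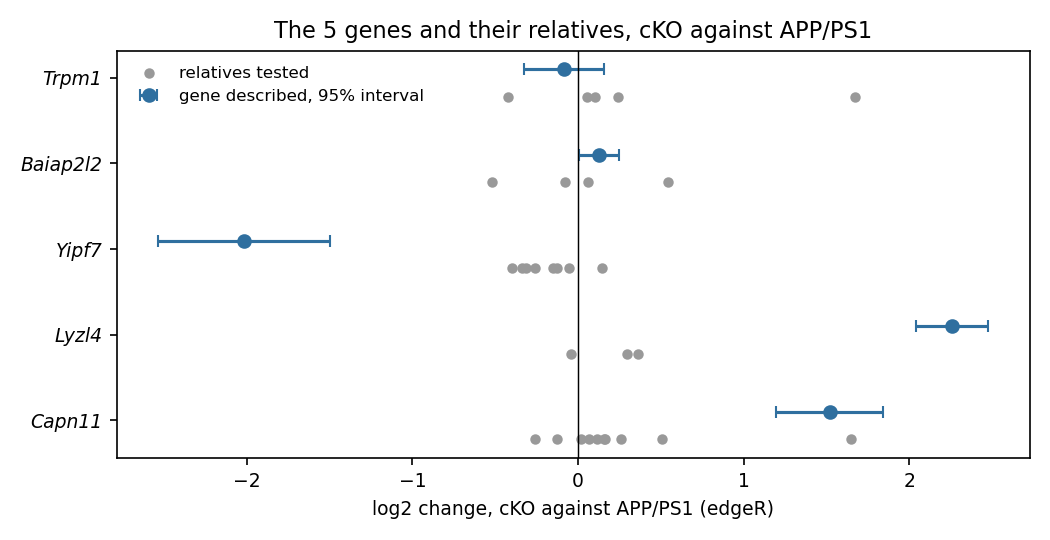
Log2 difference of cKO against APP/PS1 from edgeR for the 5 genes, with 95% intervals, above the tested relatives of each gene (grey points). Lyzl4 and Capn11 lie to the right of 0, Yipf7 to the left, and the interval of Trpm1 spans 0; the relatives lie between -0.52 and 1.67.

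Compared per length, on TPM, Baiap2l2 came first of the 5 genes in every group, at 0.597 ± 0.245 TPM in WT, 47.2 ± 3.19 in APP/PS1 and 58.97 ± 5.51 in cKO. In WT the ranges of neighbouring genes in the order overlapped throughout. In APP/PS1 Lyzl4 followed at 9.84 ± 1.81 TPM, then Trpm1 at 5.22 ± 0.416 and Yipf7 at 4.48 ± 0.75, whose ranges overlapped, and Capn11 at 1.9 ± 0.528. In cKO the order was Baiap2l2, Lyzl4 at 55.04 ± 3.32, Capn11 at 6.48 ± 0.401, Trpm1 at 5.69 ± 0.677 and Yipf7 at 1.26 ± 0.43 TPM. There the ranges of Baiap2l2 and Lyzl4 overlapped, as did those of Capn11 and Trpm1. Within the groups with APP/PS1 the Pearson statistic per degree of freedom of a gene's counts lay between 0.862 and 6.93, with a median of 2.12. Poisson counting alone puts it near 1 on average. Of the 10 values 9 were above 1, so the exact intervals of pooled counts leave out some spread between these libraries. With 3 libraries a group, the single values are not read.

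Of all genes, 4697 lay under 1 CPM in every WT library, and 116 of them (2.47%) reached 1 CPM in every APP/PS1 library or in every cKO library. The class held 89 genes for APP/PS1, 59 for cKO and 32 for both, and 4 of the 5 genes described were in both; Yipf7 was in the APP/PS1 class alone. Baiap2l2 had the highest mean of the 89 in APP/PS1 and the second highest of the 59 in cKO. In APP/PS1 the ranks of the others were 5 for Trpm1, 12 for Lyzl4, 17 for Yipf7 and 22 for Capn11, and in cKO they were 6 for Trpm1, 3 for Lyzl4 and 8 for Capn11. The gene nearest to the limit from inside was Gna14, a G protein subunit, with up to 0.998 CPM in WT and means of 1.19 in APP/PS1 and 2.06 in cKO. Just outside was Xcl1, a chemokine of T and NK cells, with up to 1.03 CPM in WT and means of 2.6 and 1.31 CPM. With a WT limit of 0.5 CPM the classes held 24, 27 and 15 genes.

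**Figure D3:**
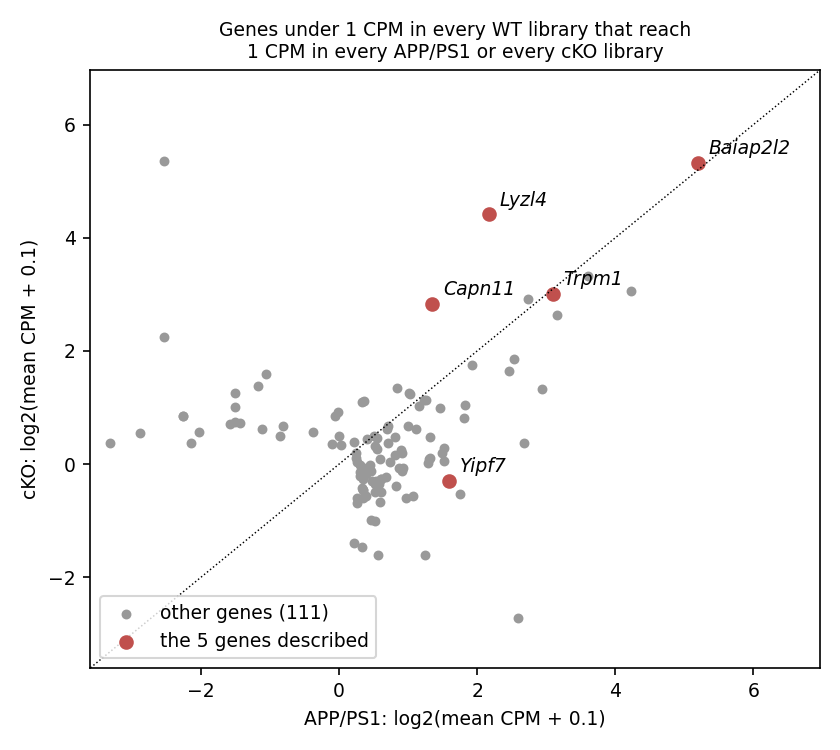
Mean level in cKO against mean level in APP/PS1, as log2 of mean CPM plus 0.1, for the 116 genes that were under 1 CPM in every WT library and reached 1 CPM in every library of at least 1 other group. The 5 genes described are in red, and the dotted line marks equal levels. Baiap2l2 sits at the upper end of the diagonal, Lyzl4 and Capn11 above it and Yipf7 below it.

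The 2 nearest measured genes on each side were taken for each of the 5, which the choice of the set did not use. Of these 20 neighbours 16 were tested, and in APP/PS1 against WT 9 were called higher and 3 lower, beside 26.9% and 32% of all genes, with a median absolute log2 difference of 0.31. That balance depended on the scaling: 6 were called higher and 6 lower with library totals or FPKM, and 5 higher and 9 lower on TPM. The largest was that of Cck, a neuropeptide gene 82147 bp from Lyzl4, at 1.94 (SE 0.23, edgeR adjusted p = 2.81e-07), with 1.13 ± 0.382 CPM for WT, 4.36 ± 0.827 for APP/PS1 and 2.39 ± 0.674 for cKO. On the other side of Lyzl4, Vipr1, a receptor for vasoactive intestinal peptide, starts 595 bp away on the opposite strand. Vipr1 was at 4.99 ± 0.0492 CPM for WT, 14.4 ± 1.15 for APP/PS1 and 15.99 ± 1.19 for cKO, and rose by 1.53 on the log2 scale from WT to APP/PS1 (SE 0.10, edgeR adjusted p = 2.23e-13).

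Beside Baiap2l2, Slc16a8, a monocarboxylate transporter, was at 0.971 ± 0.0555 CPM for WT, 2.29 ± 0.537 for APP/PS1 and 1.59 ± 0.187 for cKO, and rose by 1.23 from WT to APP/PS1 (SE 0.23, edgeR adjusted p = 4.18e-05). Pick1 and Pla2g6, the latter 672 bp away, rose by 0.23 and 0.21 (edgeR adjusted p = 0.0135 and 0.0325). On TPM both were called lower, at -0.13 and -0.15 (limma adjusted p = 0.0255 and 0.042), and neither was called on library totals or in DESeq2. The call of Pla2g6 was also lost without WT replicate 2 or 3 or APP/PS1 replicate 2 or 3 (edgeR adjusted p up to 0.19). Beside Yipf7, Gnpda2, an enzyme of glucosamine metabolism, was at 16.4 ± 0.418, 31.2 ± 0.98 and 15.4 ± 0.901 CPM; it rose by 0.93 from WT to APP/PS1 and fell by 1.02 from APP/PS1 to cKO (edgeR adjusted p = 4.07e-13 and 1.05e-13). In both steps its direction was that of Yipf7. Beside Capn11, Mrpl14, a mitochondrial ribosomal protein gene, rose by 0.87 and then fell by 0.85 (edgeR adjusted p = 4.5e-09 and 1.13e-08), while Capn11 levels were higher at each step.

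Around Trpm1 the tested neighbours Klf13, Mtmr10 and Fan1 fell in APP/PS1 by 0.38, 0.29 and 0.23 on the log2 scale (edgeR adjusted p = 7.98e-09, 1.5e-06 and 0.0152); the call of Fan1 was lost with length and GC offsets (-0.15, adjusted p = 0.11), in DESeq2 (adjusted p = 0.113) and without WT replicate 3 or APP/PS1 replicate 1 or 3 (adjusted p up to 0.0556). In cKO against APP/PS1 5 of the 16 neighbours were called higher and 5 lower, and 10 and 3 on TPM. The microRNA genes Mir211 and Mir6416 lie within Trpm1 and the antisense gene Lyzl4os overlaps Lyzl4; they are not analysed here. No source used here says whether counting used strand, so reads of Lyzl4 and its antisense partner may not be separated.

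**Figure D4:**
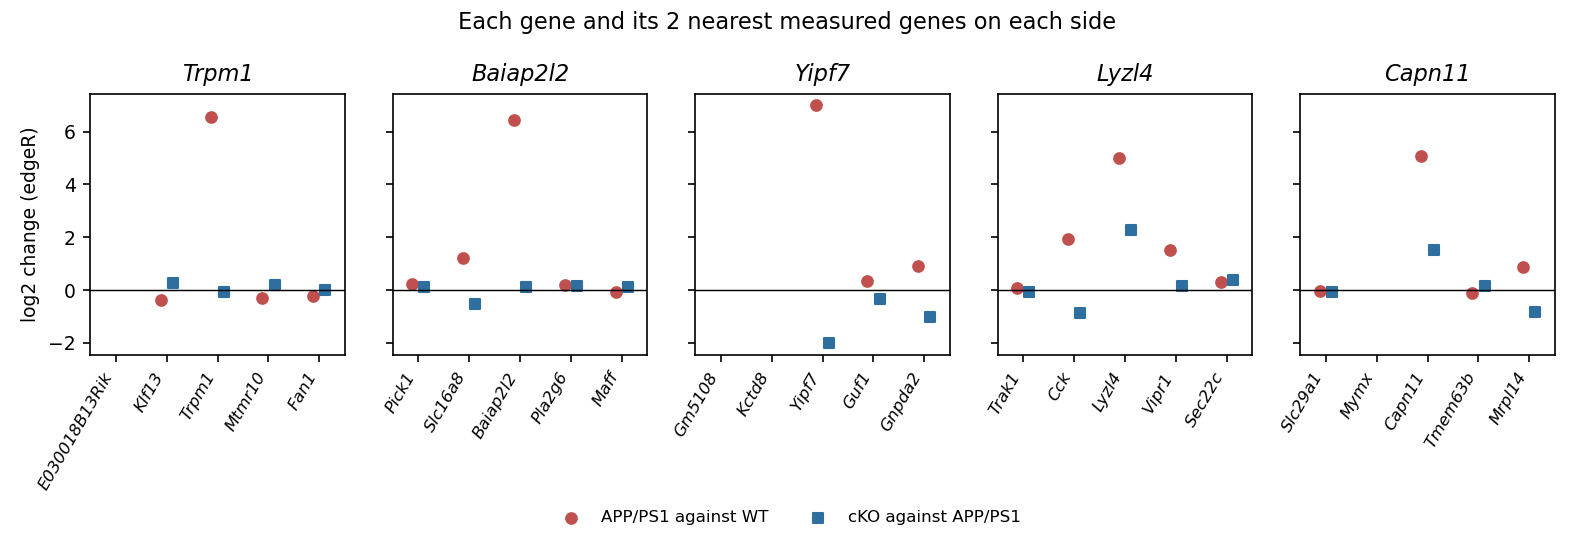
Log2 difference from edgeR for each of the 5 genes (centre of each panel) and the 2 nearest measured genes on each side, in order along the chromosome, for APP/PS1 against WT (red circles) and cKO against APP/PS1 (blue squares). Genes without a point were too low to be tested. The central genes were chosen for being low in WT and high with APP/PS1, so their height in that comparison is fixed by the choice; the neighbours, which were not, reach at most 1.94.

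The genes whose levels over the 9 libraries were most like those of each member were found by Pearson r of log2 CPM plus 0.1 among 13627 genes; the libraries fall into 3 groups, so r describes mainly the order and spacing of 3 group means. Trpm1 was most like Arpc3 (r = 0.996), Nrp1 (0.995) and Dkk2 (0.994). Of these Dkk2, an inhibitor of Wnt signalling, was itself near silent in WT, at 0.231 ± 0.0768 CPM, and was at 12.1 ± 0.431 CPM in APP/PS1 and 9.95 ± 1.0 in cKO. Baiap2l2 was most like Gfap, Ctsb and Aplp2 (r = 0.999, 0.998 and 0.998). Gfap is a marker of astrocytes, on the list used here, and was at 6.85 ± 0.396 CPM for WT, 41.1 ± 2.38 for APP/PS1 and 43.3 ± 0.622 for cKO. Of the 8 astrocyte markers 7 were called higher in APP/PS1 against WT and 7 lower in cKO against APP/PS1, where Gfap was not called; their part in the level of Baiap2l2 was not tested. Yipf7 was most like Sod2, Gpr34 and Cpe (0.999, 0.998 and 0.996), Lyzl4 most like Calr, Lhfpl2 and Abhd12 (0.996, 0.995 and 0.995), and Capn11 most like Pllp, Elk3 and Xylt1 (0.996, 0.996 and 0.995). Between 262 and 385 genes per member had an r above 0.95, so likeness at this level was common.

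Genes of the plaque response, a list drawn from knowledge of this state and used with earlier results of these data known, give a reference for the size of the changes. In APP/PS1 against WT 21 of 22 were called higher and 1 lower, with 20 higher and 2 lower on TPM, and the median log2 difference was 1.77. Cst7, a cysteine protease inhibitor, went from 11.4 ± 0.822 CPM to 1024 ± 13.9, Clec7a, a beta-glucan receptor, from 68.01 ± 2.41 to 612 ± 23.3, and Lpl, lipoprotein lipase, from 21.4 ± 1.24 to 365 ± 1.11. From APP/PS1 to cKO 6 were called higher and 13 lower, and 9 and 10 on TPM. Spp1, which encodes osteopontin, fell by 2.20 on the log2 scale (edgeR adjusted p = 1.68e-26), from 914 ± 29.1 to 198 ± 4.11 CPM, and Fabp5, a fatty acid binding protein gene, fell by 1.86 (adjusted p = 2.16e-22). Lpl rose by 0.37 (edgeR adjusted p = 5.15e-11) and Lgals3, which encodes galectin-3, by 1.05 (edgeR adjusted p = 7.36e-16). Lgals3 was the 1 gene of the list called lower in APP/PS1 against WT, at 42.8 ± 2.25 CPM against 48.9 ± 2.35.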

How the data were processed

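RNA of 9 libraries was compared in 3 groups of 3, set by the genotype in the labels. Per the labels' protocols, poly-A libraries were sequenced as single 50-nt reads. The submitters' processing notes name HISAT, Bowtie2, DESeq2 and the build GRCm38.p6, with no version or role for the tools. Per the file headers, the authors' table gives for each library estimated counts with decimals, unscaled, and FPKM and TPM values. The authors' normalised counts and group means (21 columns) were not used.

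The estimated counts, which the design had assumed to be plain counts, were rounded and tested with edgeR 4.0.16 in R 4.3.3 (quasi-likelihood test, TMM scaling, filterByExpr by group, robust fit, all libraries, 1 mean per group). P-values were adjusted by Benjamini-Hochberg across the genes tested in each comparison and called under 0.05; SE is the absolute log2 difference over the square root of F, and 95% intervals of log2 differences are normal. CPM uses TMM-scaled totals. Ratios of pooled counts have exact conditional intervals. The genes and lists were chosen with earlier results of these data known. Of each list, the genes past the threshold with at least a 2-fold change in a comparison were to be named, otherwise the 3 with the highest mean CPM; from the plaque list, which has many, and from the marker lists, a few were picked after their values were seen, as were Trpm5, Ddx3y and the log2 values printed, which are for genes called. Gene order and promoters came from RefSeq, whose table matched 18517 identifiers. Alternatives were DESeq2 1.42.0, limma 3.58.1 (voom, and trend on log2 of FPKM plus 1 or 0.1 and of TPM plus 1), other scaling and filters, offsets for length and GC content in 10 bins each, a replicate block and leaving out each library. DESeq2 size factors and FPKM for the ratios to WT were added after seeing the data. The tests were checked on simulated data.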

Additional observations from a re-analysis of the deposited data

How the results depend on the processing

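Over 12 alternatives and the 9 fits that each left out 1 library, Yipf7, Lyzl4 and Capn11 kept their direction in cKO against APP/PS1. Their log2 ranges were -2.03 to -1.09, 2.13 to 2.54 and 1.03 to 1.55 over the alternatives. Over the left-out libraries they were -2.27 to -1.79, 2.10 to 2.35 and 1.33 to 1.66. With at least 10 counts required in every library none of the 5 genes was tested. Baiap2l2 passed the threshold with library totals (0.16), with the replicate block (0.13, adjusted p = 0.0122) and on TPM (0.31), was 0.059 with length and GC offsets, and ranged from 0.069 to 0.20 over left-out libraries, passing in 2 of 9. Trpm1 changed sign on TPM (0.10, adjusted p = 0.394) and ranged from -0.15 to 0.021; it passed in none of these fits, with adjusted p from 0.246 to 0.911. The cause of these shifts was not tested.

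The numbers of genes called over left-out libraries were 8024 to 8763 for APP/PS1 against WT, 7345 to 8133 for cKO against APP/PS1 and 6291 to 7133 for cKO against WT. The near-silent genes numbered 4697 to 4808, of which 89 to 120 reached 1 CPM in APP/PS1, 59 to 88 in cKO and 32 to 46 in both. With a limit of 0.5 CPM 24, 27 and 15 did, and on TPM 47 did in APP/PS1. Without scaling factors 29.5% of the calls in APP/PS1 against WT were higher, in place of 45.7%, and 30.4% in place of 51.9% in cKO against WT, with medians over all genes of -0.17 and -0.12. On log2 FPKM plus 1 the shares were 30.2% and 32.0%. On TPM they were 14.7% and 19.8%, and 75.3% in place of 49.6% in cKO against APP/PS1, with medians of -0.35, -0.17 and 0.14; log2 differences on TPM are to be read against those.

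Of the named neighbours and list genes, 71 calls over 2 comparisons gave 1561 alternative values, of which 5 changed sign: Pick1 (-0.13), Pla2g6 (-0.15) and Sec22c (-0.037) on TPM, and Cd9 with length and GC offsets, without and with the replicate block (0.0078 and 0.0079). Of these 5, the 2 of Pick1 and Pla2g6 passed the threshold in the alternative. For named genes not called, whose log2 values are not printed, 47 of 416 alternative values changed sign, and 6 of the 47 passed the threshold in the alternative. Which log2 values to print was decided after these sign changes were seen.

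The labels do not say what a replicate number stands for. The deviations from the group means correlated at 0.055 to 0.29 (mean 0.19) over the 9 pairs of libraries with the same number and at no more than 0.053 (mean -0.095) over the 18 other pairs, so every library correlated best with its own number, a hint from the data, not the design. As 1 pair lay under 0.1, the numbers were not taken to pair the libraries. A fit with the replicate block called 9319, 8851 and 7934 genes, in place of 8670, 8085 and 7010. Depth limits what can be said of WT levels, which rest on 1 to 25 counts per gene over 3 libraries.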
